A study of Mus musculus with 2 samples.

Results

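Glycolytic enzymes and the carriers of their substrate and product were followed across the cells of the mouse testis at PD7 (postnatal day 7). The set is 10 genes of the 32285 in the deposited tables, chosen by symbol: the glucose carrier Slc2a1, the hexokinases Hk1 and Hk2, the phosphofructokinase Pfkp, the aldolase Aldoa, the phosphoglycerate kinase Pgk1, the pyruvate kinase Pkm, the lactate dehydrogenase subunits Ldha and Ldhb, and the monocarboxylate carrier Slc16a1. The study made 2 10x Genomics single-cell libraries from whole testes dissociated with collagenase IV and TrypLE Express, 1 from a control mouse and 1 from a Brca1 vKO littermate. Brca1 vKO is a deletion restricted to germ cells, in which Cre driven by the Vasa promoter removes the floxed allele of Brca1 f/- mice from fetal life on, so that the somatic cells of a vKO testis keep that allele and lack the other. With 1 mouse of each genotype there was no test between genotypes, and genotype, mouse and library cannot be told apart. All intervals given are exact, at the 95% level, and cover counting error only.

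Glycolysis splits glucose into pyruvate in the cytosol, and lactate dehydrogenase turns pyruvate and lactate into each other. In the seminiferous tubule Sertoli cells are known to take up glucose and export lactate, which germ cells take up through monocarboxylate carriers and oxidise. LDHA and LDHB form the tetramers of the enzyme in most tissues, with LDHA prevailing where lactate is made fast and LDHB where it is oxidised. SLC16A1 (MCT1) carries lactate in either direction and SLC16A3 (MCT4) mainly outwards, and both need a glycoprotein partner, basigin or embigin, to reach the cell surface.

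Cells were grouped by clustering and named from marker genes. The named classes held 387 control and 181 vKO Undifferentiated-like germ cells (Gfra1, Ret), 164 and 10 KIT-like germ cells (Kit, Stra8), 2033 and 4160 Sertoli-like cells, 853 and 1984 Stromal-like cells, 556 and 1413 Myoid-like cells and 47 and 112 Leydig-like cells. Germ-like refers below to the Undifferentiated-like and KIT-like cells together with 18 control and 2 vKO cells of an Intermediate-like cluster. S100a8 and S100a9, which are genes of neutrophils, stood among the 10 leading genes of the Undifferentiated-like cluster beside Gfra1, Ret and Lhx1. The median depth was 43937 UMIs (unique molecules) per cell in control and 36008 in vKO Undifferentiated-like cells, against 18680 and 15616 in Sertoli-like cells. More vKO than control cells had been loaded, and 21 cell barcodes occurred in both libraries. Brca1 itself stood at 75.3 CPM (UMIs per 1000000 UMIs of the summed cells) in control and 46.9 CPM in vKO Germ-like cells, and at 30.1 and 25.9 CPM in Sertoli-like cells. It was not lower in the 10 vKO KIT-like cells, at 105 CPM (77.7 to 139) against 86.1 CPM in control, and it was lower in vKO Stromal-like cells, at 12.4 against 23.5 CPM, so that the difference was not limited to germ cells. By immunofluorescence, the paper reports complete loss of BRCA1 protein in vKO germ cells once undifferentiated spermatogonia began to form. The deletion removes only some exons, and UMIs counted by gene can come from the rest, so these levels do not measure the deletion.

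The genomic positions are those of the GENCODE M21 annotation on GRCm38. Slc2a1 lies at chr4:119108711-119137983, Hk1 at chr10:62268855-62379908, Hk2 at chr6:82725025-82774454, Pfkp at chr13:6579768-6648777 and Aldoa at chr7:126795234-126800751. Pgk1 lies at chrX:106187100-106203699, Pkm at chr9:59656368-59679375, Ldha at chr7:46841475-46855627, Ldhb at chr6:142490249-142507957 and Slc16a1 at chr3:104638668-104658462. Several of them, Aldoa, Pgk1, Pkm and Ldha among these, have close processed copies elsewhere in the genome, so that their counts depend on how reads shared with a copy were assigned. Counting by gene pools the M1 and M2 forms of Pkm.

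The promoters of Ldha, Ldhb and Slc16a1 are shown because these are the members of the lactate route, which had different orders over the cell classes. Each window runs from 250 bases before to 50 bases after the transcription start (RefSeq, GRCm38.p6), 5′ to 3′ on the gene's own strand. Capitals mark ACGTG on either strand (CACGT on the strand printed), the core letters of the element that hypoxia-inducible factors bind, which overlaps the E-box CACGTG. The Ldha window lies at chr7:46845554-46845853 on the plus strand, that of Ldhb at chr6:142507908-142508207 on the minus strand and that of Slc16a1 at chr3:104638414-104638713 on the plus strand.
Ldha: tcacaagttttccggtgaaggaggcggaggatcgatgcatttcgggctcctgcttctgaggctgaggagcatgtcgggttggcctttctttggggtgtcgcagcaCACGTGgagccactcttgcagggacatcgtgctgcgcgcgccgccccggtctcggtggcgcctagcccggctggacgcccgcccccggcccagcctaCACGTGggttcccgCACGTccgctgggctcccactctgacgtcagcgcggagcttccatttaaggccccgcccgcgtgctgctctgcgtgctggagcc
Ldhb: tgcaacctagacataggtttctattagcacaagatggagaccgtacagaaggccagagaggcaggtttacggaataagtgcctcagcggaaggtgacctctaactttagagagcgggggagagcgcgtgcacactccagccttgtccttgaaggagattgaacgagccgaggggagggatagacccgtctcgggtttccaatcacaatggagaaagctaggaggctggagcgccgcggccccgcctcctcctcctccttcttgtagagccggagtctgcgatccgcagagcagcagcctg
Slc16a1: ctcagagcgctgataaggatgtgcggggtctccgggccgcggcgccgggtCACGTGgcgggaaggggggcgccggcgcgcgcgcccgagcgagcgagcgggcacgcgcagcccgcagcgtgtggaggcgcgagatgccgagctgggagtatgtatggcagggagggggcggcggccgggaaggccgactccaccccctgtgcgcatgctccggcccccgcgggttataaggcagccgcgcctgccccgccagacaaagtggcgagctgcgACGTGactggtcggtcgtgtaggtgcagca

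ACGTG occurred 5 times in this Ldha window and 3 times in that of Slc16a1, both strands counted, and these letters were not in the Ldhb window. The Ldha window also held 2 CACGTG, 3 GGGCGG and 1 TGACGTCA, both strands counted. Of the 15 windows listed for the 10 genes, 9 held ACGTG, belonging to 8 genes, and Ldhb and Pfkp were without it. Among all 32851 promoter windows of this length 19.6% held it, and 7.15% held CACGTG, 35.7% GGGCGG and 1.79% TGACGTCA. A second Ldha window, further along the gene, held none of these 4 motifs.

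The first comparison asked where in the testis each step of the pathway was expressed. The 10 genes together took 0.272% of all UMIs in control and 0.292% in vKO Sertoli-like cells. Their summed share was 0.0769% and 0.0919% in Undifferentiated-like cells, and 0.0549% in control and 0.0720% in vKO KIT-like cells. Stromal-like cells gave 0.119% and 0.131%, Myoid-like cells 0.118% and 0.124%, and Leydig-like cells 0.182% and 0.193%. Sertoli-like cells had the highest share and germ cells the lowest in both libraries, and the genes did not follow this order one by one.

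**Figure D1:**
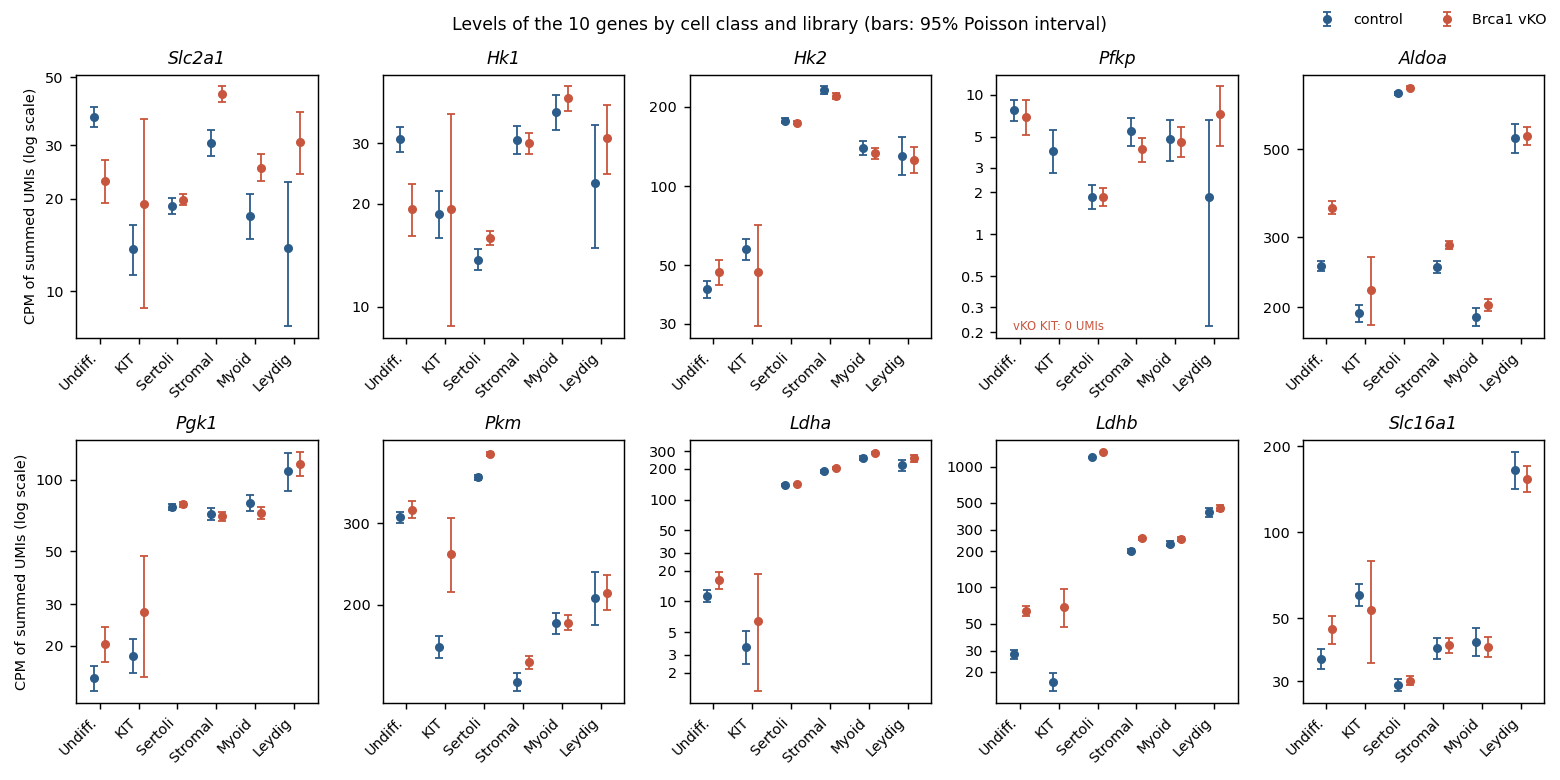
Levels of the 10 genes as CPM of summed UMIs (log axis) in 6 cell classes, control in blue and Brca1 vKO in red, with exact Poisson intervals as bars. Ldhb peaks in Sertoli-like cells in both libraries, at 1197 and 1318 CPM, and Ldha is lowest in the germ classes.

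Of the 10 genes, both lactate dehydrogenase subunits had the largest differences between Germ-like and Sertoli-like cells. With a gene counted as higher or lower when the CPM ratio passed 1.5-fold the same way in both libraries with at least 50 UMIs, 1 of the 10 genes was higher in Germ-like cells (Pfkp) and 5 were lower (Hk2, Aldoa, Pgk1, Ldha and Ldhb). Of all 14992 genes compared, 32.8% were higher and 28.4% lower by this rule. The median log2 ratio of the 10 genes was -1.0 in control and -0.71 in vKO, against 0.12 and 0.03 over all genes.

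Ldhb, the heart-type lactate dehydrogenase subunit, was the gene with the widest range. Its level was 1197 CPM (1188 to 1206) in control and 1318 CPM (1311 to 1325) in vKO Sertoli-like cells. In Undifferentiated-like cells it was 28.0 CPM (25.6 to 30.5) and 63.9 CPM (58.0 to 70.1). Sertoli-like cells stood far above every other class, with Leydig-like cells next at 418 and 456 CPM, or 34.9% and 34.6% of the Sertoli-like level. The 10 Sertoli markers summed in the same Leydig-like cells to 15.8% and 10.6% of their Sertoli-like level, and their part in the rank of this class was not tested. Stromal-like cells gave 202 and 254 CPM, Myoid-like cells 230 and 251 CPM, and control KIT-like cells 16.6 CPM (14.0 to 19.6). The ratio of Germ-like to Sertoli-like cells was 0.0204 (0.0189 to 0.0220) in control and 0.0488 (0.0444 to 0.0534) in vKO. Counted per cell, this was 1.16 UMIs in a control Germ-like cell and 32.0 UMIs in a control Sertoli-like cell.

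Ldha, the muscle-type subunit, had another order. Among the named classes it was highest in Myoid-like cells, at 259 CPM (247 to 270) in control and 286 CPM (278 to 295) in vKO, together with the small Endothelial-like class and the small Pericyte-like class, the latter at 206 CPM (169 to 249) and 271 CPM (233 to 313), whose intervals overlapped those of Myoid-like cells in both libraries. An unnamed cluster led by S100a9, S100a8 and Ngp stood at 256 and 352 CPM. Leydig-like cells had 217 and 255 CPM and Stromal-like cells 190 and 206 CPM. Sertoli-like cells, at 139 and 141 CPM, were the lowest of the 4 somatic classes compared here. In Undifferentiated-like cells Ldha was at 11.4 CPM (9.86 to 13.0) in control and 16.2 CPM (13.4 to 19.5) in vKO, and in control KIT-like cells at 3.61 CPM (2.44 to 5.15), from 30 UMIs. Germ cells were thus low for both subunits, and the Germ-like to Sertoli-like ratio of Ldha was 0.0650 (0.0570 to 0.0738) in control and 0.111 (0.0912 to 0.133) in vKO.

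Sertoli markers in germ cells give a level beside which such low values can be read, and free RNA, doublets and expression as sources of these UMIs were not tested. The 10 Sertoli markers, from Sox9 and Amh to Gata1, summed to 110 CPM in control and 240 CPM in vKO Undifferentiated-like cells, which was 1.05% (single markers 0.665 to 3.64%) and 2.25% (1.72 to 6.95%) of their level in Sertoli-like cells. No Sertoli marker was at 0 in these cells. Ldhb in the same cells was at 2.34% and 4.85% of its Sertoli-like level, above 9 of the 10 markers in both libraries. Ldha was at 8.17% and 11.5%, above all 10. In control KIT-like cells Ldhb was at 1.39%, where the markers summed to 1.06% and 9 of them lay at or below 1.31%, and in the 10 vKO KIT-like cells it was at 5.2%, where the markers summed to 2.44%. With the Sertoli profile subtracted from each class in proportion to its summed Sertoli markers, the Germ-like to Sertoli-like ratio of Ldhb became 0.0100 in control and 0.0267 in vKO, and that of Ldha 0.0550 and 0.0900.

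**Figure D2:**
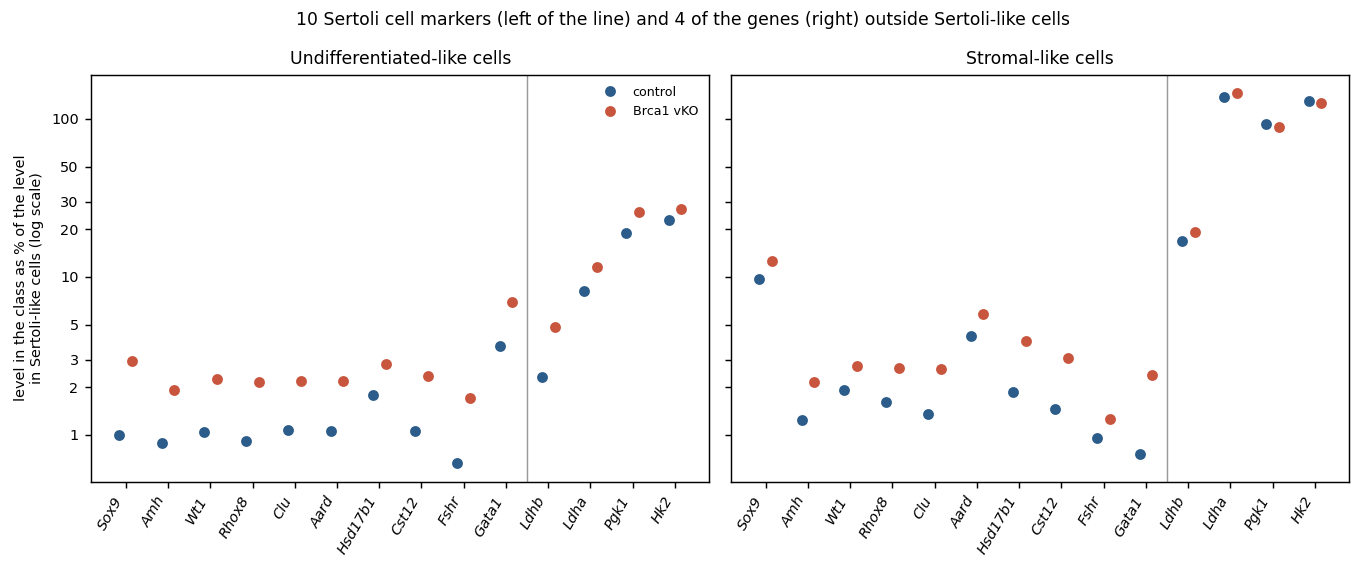
Level in Undifferentiated-like (left) and Stromal-like cells (right) as a percentage of the level in Sertoli-like cells (log axis), for 10 Sertoli markers left of the line and 4 of the glycolytic genes right of it, control in blue and Brca1 vKO in red. In Undifferentiated-like cells the markers sit mostly between 0.665 and 1.79% in control and higher in vKO, and Ldhb at 2.34 and 4.85%.

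Slc2a1, which brings glucose into most cells, was highest in the small Endothelial-like class, at 87.2 and 104 CPM. The small Pericyte-like class came next in control, at 62.9 CPM (43.3 to 88.4), with an interval overlapping that of Endothelial-like cells, and stood at 31.4 CPM in vKO. Among the 6 larger or germ classes of the control library Undifferentiated-like cells led with 37.1 CPM (34.3 to 40.0), followed by Stromal-like cells with 30.5 CPM (27.7 to 33.5). Sertoli-like, Myoid-like, Leydig-like and KIT-like cells came next, at 19.0, 17.6, 13.8 and 13.7 CPM, and each of these overlapped its neighbour in that order. In vKO the Stromal-like cells led these classes with 43.9 CPM (41.4 to 46.6), and Undifferentiated-like cells, at 22.9 CPM (19.4 to 26.7), overlapped Sertoli-like cells at 19.9 CPM (19.0 to 20.8).

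Of the enzymes between hexose and pyruvate, Aldoa, Pgk1 and Hk2 were also lower in Germ-like than in Sertoli-like cells. Aldoa, which cleaves fructose 1,6-bisphosphate, stood at 690 and 714 CPM in Sertoli-like cells and at 255 and 357 CPM in Undifferentiated-like cells, and the Germ-like to Sertoli-like ratio was 0.343 (0.334 to 0.352) in control and 0.487 (0.468 to 0.507) in vKO. Pgk1, the first ATP-making step and X-linked, was between 70.0 and 117 CPM in the 4 somatic classes of both libraries and at 14.7 and 20.3 CPM in Undifferentiated-like cells. Its Germ-like to Sertoli-like ratio was 0.205 (0.185 to 0.226) and 0.263 (0.223 to 0.309). Sertoli-like, Stromal-like and Myoid-like cells lay close together for Pgk1, with Leydig-like cells above them at 108 and 117 CPM. Both germ classes of the control library lay well below all 4 somatic classes.

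Hk2, the inducible hexokinase, was highest in Stromal-like cells at 231 and 221 CPM, followed by Sertoli-like cells at 177 and 174 CPM. Undifferentiated-like cells had 40.5 CPM (37.6 to 43.6) in control and 47.1 CPM (42.1 to 52.5) in vKO. Hk1, the constitutive hexokinase, had another order and was lowest of the 6 larger or germ classes in Sertoli-like cells, at 13.7 CPM (12.8 to 14.8) and 15.9 CPM (15.1 to 16.7). In vKO the latter interval overlapped those of Undifferentiated-like cells, at 19.3 CPM (16.1 to 22.8), and of KIT-like cells, at 19.3 CPM (8.82 to 36.6). Hk1 stood at 30.8 CPM in control Undifferentiated-like cells, 30.7 CPM in control Stromal-like cells, 37.0 CPM in control Myoid-like cells and 18.7 CPM in control KIT-like cells. The share of Hk2 in the UMIs of both hexokinases was therefore 92.8% (91.6% in vKO) in Sertoli-like cells and 56.8% (71.0% in vKO) in Undifferentiated-like cells. Stromal-like cells gave 88.3% and 88.0%, and Myoid-like cells 79.1% and 76.6%.

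Pfkp, the platelet-type phosphofructokinase, was the only one of the 10 genes past 1.5-fold higher in Germ-like cells in both libraries, with a ratio of 3.53 (2.75 to 4.55) in control and 3.50 (2.50 to 4.83) in vKO. Its levels were low in all larger and germ classes. They were 7.75 CPM (6.51 to 9.15) in control Undifferentiated-like cells and 1.86 CPM in Sertoli-like cells of either library. Stromal-like and Myoid-like cells also stood above Sertoli-like cells, at 294% and 258% of that level in control and 219% and 248% in vKO. Leydig-like cells were at 98.98% in control, from 2 UMIs, and 390% in vKO, from 18 UMIs. The control Germ-like ratio of Pfkp was 1.2 (0.915 to 1.59) to Stromal-like and 1.37 (0.957 to 2.01) to Myoid-like cells. Both of these intervals include 1. The Endothelial-like cells had the most, 39.6 CPM in control and 35.9 CPM in vKO. Hk1 and Slc2a1 were above Sertoli-like cells in the control Germ-like cells, at ratios of 2.0 (1.80 to 2.21) and 1.58 (1.44 to 1.73), but at 1.21 and 1.14 in vKO they did not pass 1.5-fold there. With TMM scaling, which lowered all Germ-like to Sertoli-like ratios by 0.34 (control) and 0.47 (vKO) on the log2 scale, these vKO ratios fell to 0.876 and 0.823, below 1.

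Pkm, the last step to pyruvate, stood at 376 and 423 CPM in Sertoli-like cells and at 309 and 321 CPM in Undifferentiated-like cells, which was within 1.5-fold. Control KIT-like cells, at 163 CPM, were past 1.5-fold lower, with a ratio to Sertoli-like cells of 0.432 (0.409 to 0.457). The Germ-like to Sertoli-like ratio was 0.702 (0.683 to 0.721) in control and 0.747 (0.716 to 0.779) in vKO. Counted per cell the order was the other way round, at 12.5 UMIs in control Germ-like and 10.1 UMIs in control Sertoli-like cells, because the germ cells held more UMIs in all. Stromal-like cells had the least Pkm of the 6 classes, at 137 and 150 CPM. In Undifferentiated-like cells the pyruvate kinase was thus within 1.5-fold of its Sertoli level, and both lactate dehydrogenase subunits were far below theirs. With TMM scaling, however, the Germ-like to Sertoli-like ratio of Pkm fell to 0.554 and 0.541, past 1.5-fold lower in both libraries.

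**Figure D3:**
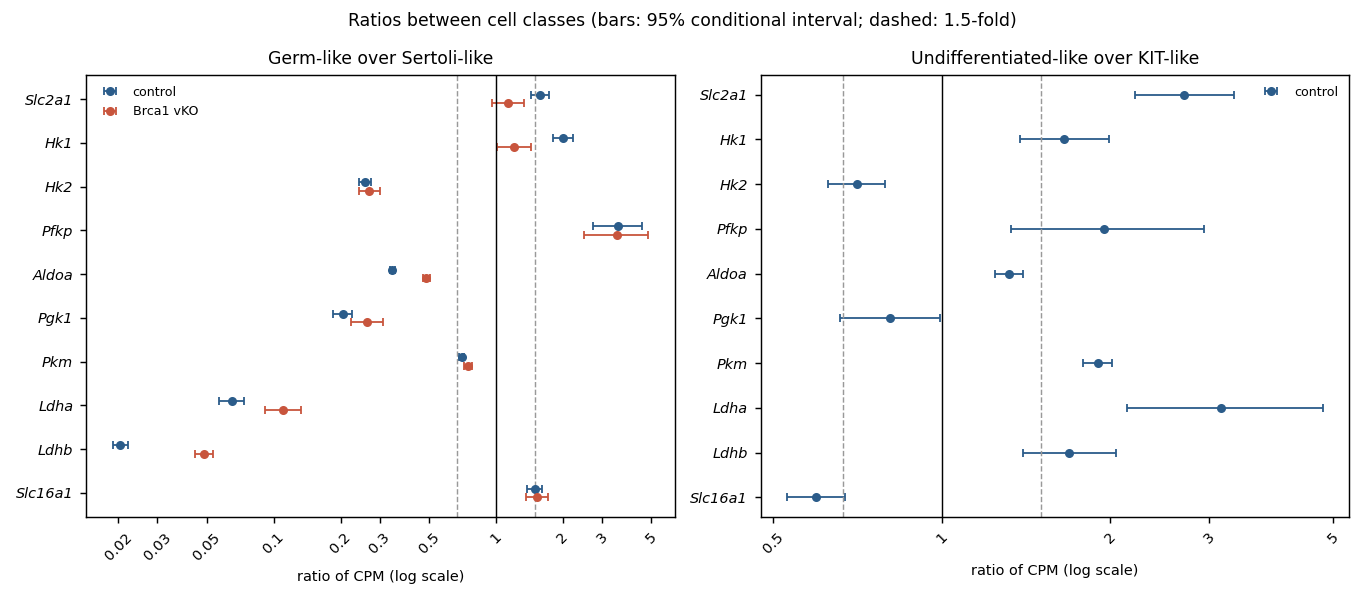
Ratios of CPM (log axis) of Germ-like to Sertoli-like cells in both libraries (left) and of Undifferentiated-like to KIT-like cells in the control library (right), with exact conditional intervals as bars and 1.5-fold as dashed lines. Ldhb and Ldha lie farthest to the left in the left panel (0.0204 and 0.0650 in control), and Slc16a1 lies lowest in the right panel at 0.596.

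The other enzymes of the pathway show which isoforms the germ cells carried. Of 16 genes of the hexose steps, 12 could be compared between Germ-like and Sertoli-like cells, 4 higher and 6 lower in both libraries, where 32.8% of all genes were higher and 28.4% lower. Gpi1, the glucose-6-phosphate isomerase, was 5.33 times (5.11 to 5.57) the Sertoli level in control and 5.48 times in vKO, at 277 and 282 CPM against 52.0 and 51.5 CPM. Aldoc, another aldolase, was at 31.0 and 37.3 CPM in Germ-like cells and 3.99 and 3.60 CPM in Sertoli-like cells. The liver-type phosphofructokinase Pfkl went the other way, at 1.89 and 3.12 CPM against 53.1 and 54.4 CPM, as did Pfkfb3, whose product makes the activator of phosphofructokinase, at 4.89 and 5.69 CPM against 77.4 and 109 CPM. Of 13 genes of the triose steps 9 could be compared against the same shares, with Eno3 and Eno4 higher and Tpi1, Pgk1, Pgam1 and Eno1 lower in Germ-like cells. Tpi1, the triose-phosphate isomerase, was at 10.8 and 12.3 CPM in Germ-like and at 96.4 and 81.7 CPM in Sertoli-like cells, and Gapdh, the next step, at 736 and 652 CPM against 902 and 784 CPM. Within the enzyme families, Pfkp and Aldoc were higher on the germ side, and Pfkl, Pfkm, Aldoa and Hk2 on the Sertoli side. In Germ-like cells Pfkm nevertheless held 197 UMIs in control and 55 in vKO, beside 177 and 48 of Pfkp.

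The lactate route links Sertoli and germ cells, and its carriers were followed next. Slc16a1 was 1.49 times (1.38 to 1.61) as high in Germ-like as in Sertoli-like cells in control and 1.53 times (1.36 to 1.71) in vKO, so that 1 of the 2 libraries passed 1.5-fold. With TMM scaling these ratios fell to 1.18 and 1.11, and with at most 5% mitochondrial UMIs to 1.27 and 1.07. With every cell thinned to 2000 UMIs they rose to 1.87 and 2.01. Its levels were 36.0 CPM (33.3 to 38.9) in control and 45.6 CPM (40.7 to 51.0) in vKO Undifferentiated-like cells, 60.4 CPM (55.2 to 65.9) in control KIT-like cells, and 29.2 and 30.2 CPM in Sertoli-like cells. Leydig-like cells stood above every class at 165 CPM (142 to 191) and 154 CPM (139 to 170). Stromal-like and Myoid-like cells, between 39.2 and 41.3 CPM in both libraries, did not differ from each other beyond their intervals.

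Slc16a3, which encodes the lactate exporter MCT4, had the opposite pattern. It was at 45.1 and 35.2 CPM in Sertoli-like cells and at 1.51 and 2.61 CPM in Undifferentiated-like cells, a Germ-like to Sertoli-like ratio of 0.0337 (0.0241 to 0.0458) in control and 0.0693 (0.0410 to 0.110) in vKO. Slc16a3 made up 60.7% (53.9% in vKO) of the UMIs of the pair Slc16a3 and Slc16a1 in Sertoli-like cells, 28.8% and 24.7% in Stromal-like cells and 4.01% and 5.41% in Undifferentiated-like cells. As a share of the Sertoli-like level, Slc16a3 in control Germ-like cells was above every single Sertoli marker except Gata1. The markers ranged from 0.679 to 5.85% there, with Gata1 the highest and the next at 1.61%. In vKO it was above the whole range of the markers (1.69 to 6.5%). Slc16a7 (MCT2), a high-affinity carrier, stood at 29.0 CPM in vKO Myoid-like cells and close to that level in control ones, and at 0.444 and 0.542 CPM in Germ-like cells. Slc16a8 had 7 UMIs in control and 0 in vKO Germ-like cells.

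The partners of these carriers were present on both sides. Bsg, basigin, ranged from 293 CPM in control Undifferentiated-like cells to 626 CPM in vKO Leydig-like cells, and its Germ-like to Sertoli-like ratio was 0.937 in control and 0.986 in vKO. Emb, embigin, was higher in Germ-like cells, at 25.7 CPM against 15.9 CPM in control and 84.8 CPM against 22.6 CPM in vKO, and was at or below 1.35 CPM in Stromal-like, Myoid-like and Leydig-like cells. Ldhc, the germ cell subunit that becomes abundant in meiosis, was at 3.26 and 3.52 CPM in Germ-like cells and at 0.147 and 0.128 CPM in Sertoli-like cells. Ldhd was at 0.883 and 1.16 CPM in Sertoli-like cells and Ldhal6b at 0.444 and 1.36 CPM in Germ-like cells. Of the 11 genes of the route, 8 could be compared between Germ-like and Sertoli-like cells in both libraries, with Emb higher and Ldha, Ldhb, Ldhd, Slc16a3 and Slc16a7 lower, against 32.8% of all genes higher and 28.4% lower.

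The share of Ldhb in the UMIs of both subunits sets the classes side by side without regard to the total. It was 89.6% (90.3% in vKO) in Sertoli-like cells, 71.1% (79.8%) in Undifferentiated-like cells and 65.9% (64.1%) in Leydig-like cells. KIT-like cells gave 82.1% in control and 91.4% in vKO, the latter from 35 UMIs in 10 cells (76.9 to 98.2%). Stromal-like cells gave 51.4% and 55.3%, Myoid-like cells 47.1% and 46.7%, and the small Endothelial-like class 32.8% and 38.0%. Sertoli-like cells thus had the highest share of the 6 larger or germ classes in control, and in vKO the interval of the KIT-like cells includes theirs. The share compares classes only, since 2 genes can differ in how well they are captured. It was taken from raw UMIs without subtraction of the Sertoli profile, and the part of Sertoli RNA in the shares of the germ classes was not tested.

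**Figure D4:**
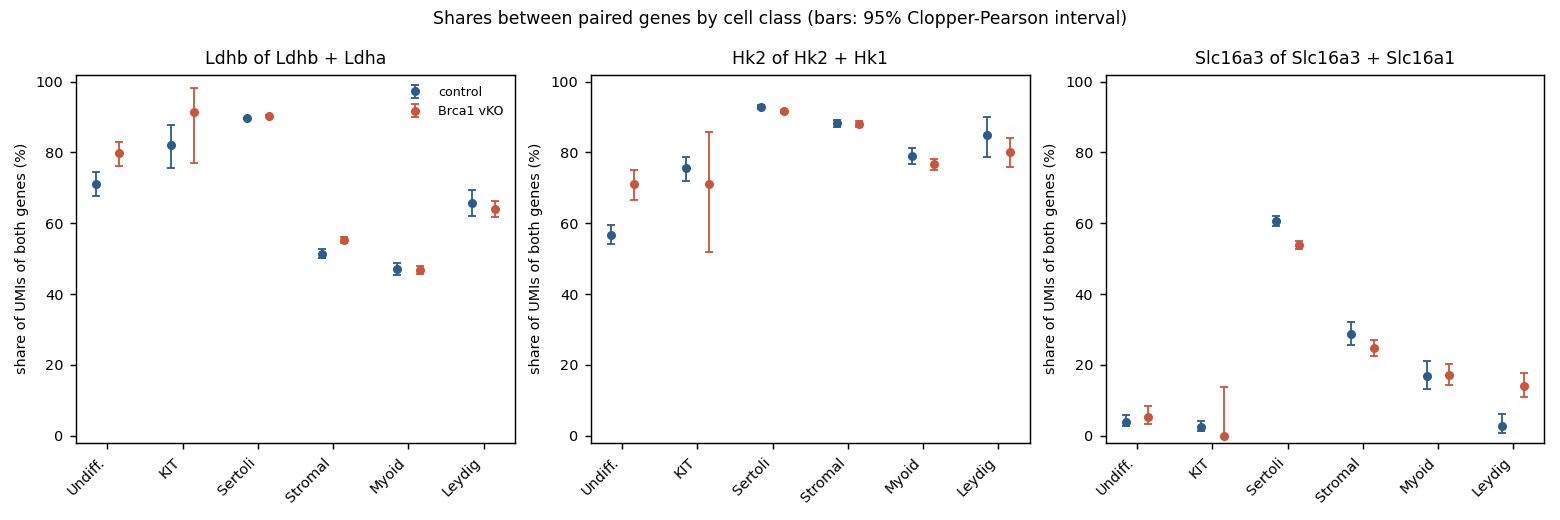
Share (%) of Ldhb in the UMIs of Ldhb and Ldha, of Hk2 in those of Hk2 and Hk1, and of Slc16a3 in those of Slc16a3 and Slc16a1, by cell class, control in blue and Brca1 vKO in red, with Clopper-Pearson intervals as bars. Sertoli-like cells have the highest share in all 3 panels among the 6 classes drawn in control (89.6, 92.8 and 60.7%), and in vKO the 10 KIT-like cells stand at 91.4% for Ldhb.

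The step from pyruvate into the mitochondrion was compared by the same rule. Of 15 genes, all of which could be compared, 5 were higher in Germ-like than in Sertoli-like cells (Mpc2, Pdha1, Pdha2, Pdk1 and Pcx) and 3 lower (Dld, Pdk4 and Pdp1), against 32.8% higher and 28.4% lower among all genes, so that the counts do not set this list apart. Mpc2, a subunit of the mitochondrial pyruvate carrier, was at 539 and 388 CPM in Germ-like and 127 and 128 CPM in Sertoli-like cells, while its partner Mpc1 was at 47.5 and 61.7 CPM against 89.4 and 91.4 CPM. Pdk1, a kinase that switches pyruvate dehydrogenase off, was at 115 and 106 CPM against 34.4 and 35.6 CPM. Both a subunit of the dehydrogenase (Pdha1, 45.9 and 47.4 CPM against 12.4 and 11.9 CPM) and its inhibitor were thus higher on the germ side.

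Regulators of the pathway followed. Of 16 genes of the hypoxia response 15 could be compared, 3 higher in Germ-like cells (Egln3, Ankrd37 and Ero1l) and 4 lower (Hif1a, Vegfa, P4ha1 and Adm), so that neither count is above the shares of 32.8% and 28.4% among all genes. Hif1a, the regulated subunit of hypoxia-inducible factor, was at 79.4 and 95.2 CPM against 267 and 308 CPM. Of 6 regulators of glycolysis, set against the same shares, Tigar and Txnip were higher and Myc, Mycn, Prkaa1 and Prkaa2 lower in Germ-like cells. Myc, a driver of glycolytic genes, was at 0.592 and 1.36 CPM in Germ-like and 5.66 and 4.67 CPM in Sertoli-like cells, and at 85.9 and 97.7 CPM in Myoid-like cells.

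The second comparison split the control germ cells by stage, Undifferentiated-like (387 cells) against KIT-like (164 cells), the latter being differentiating spermatogonia. Of the 10 genes, 6 were past 1.5-fold higher in Undifferentiated-like cells (Slc2a1, Hk1, Pfkp, Pkm, Ldha and Ldhb) and 1 was lower (Slc16a1). Of the 13453 genes compared, 18.4% were higher and 15.9% lower. The median log2 ratio was 0.44 over the 10 genes and -0.02 over all genes. In the vKO library, with 10 KIT-like cells, it was -0.001 over the 9 genes that could be compared and -0.006 over all genes.

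Ldha had the largest ratio, 3.15 (2.14 to 4.79), from 204 UMIs against 30 UMIs, and it was 1.52 when cells were gated on marker UMIs without clusters. Slc2a1, the GLUT1 glucose carrier, was at 37.1 CPM (34.3 to 40.0) in Undifferentiated-like and 13.7 CPM (11.3 to 16.5) in KIT-like cells, a ratio of 2.70 (2.21 to 3.33). Pkm, with 5537 and 1351 UMIs, was at 309 and 163 CPM, a ratio of 1.90 (1.79 to 2.02). The ratio of Slc2a1 was 1.83 with gated cells and 6.39 with every cell thinned to 2000 UMIs, the latter from 30 and 2 UMIs, and that of Pkm 1.71 and 2.44. Pfkp had a ratio of 1.95 (1.33 to 2.95), Hk1 of 1.65 (1.38 to 1.99) and Ldhb of 1.68 (1.39 to 2.05), and the last was 1.17 with gated cells and 3.89 after subtraction of the Sertoli profile. Hk1 did not pass 1.5-fold with gated cells (1.48) or with every cell thinned to 2000 UMIs (1.34, from 22 and 7 UMIs).

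Slc16a1 went the other way, with a ratio of 0.596 (0.530 to 0.671), or 1.67 UMIs per Undifferentiated-like and 3.06 UMIs per KIT-like cell. Hk2 had a ratio of 0.704 (0.627 to 0.792) and Pgk1 of 0.807 (0.658 to 0.992), so that both were lower in Undifferentiated-like cells without passing 1.5-fold, and Aldoa a ratio of 1.32 (1.24 to 1.39). With every cell thinned to 2000 UMIs Hk2 was at 0.450, from 19 and 18 UMIs, and Pgk1 at 0.341, from 8 and 10 UMIs. Among the partners, Emb was at 28.7 and 17.8 CPM and Bsg at 293 and 396 CPM. The glucose carrier was thus higher at the earlier stage and the lactate carrier at the later one, though with every cell thinned to 2000 UMIs the ratio of Slc16a1 was 0.730, short of 1.5-fold, from 36 and 21 UMIs. The 10 vKO KIT-like cells gave wide intervals, with a ratio of 1.19 (0.609 to 2.64) for Slc2a1, 0.852 (0.566 to 1.34) for Slc16a1 and 1.62 (1.33 to 1.99) for Aldoa, and held 0 UMIs of Pfkp, which allows up to 7.91 CPM. In vKO Undifferentiated-like and KIT-like cells Pkm was at 321 and 257 CPM, Ldhb at 63.9 and 68.6 CPM and Hk1 at 19.3 CPM in both. Ldha was at 16.2 and 6.43 CPM, the latter from 3 UMIs.

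Other genes of the pathway were set side by side by stage. In the list from pyruvate to the mitochondrion 3 of 14 compared genes were higher in control Undifferentiated-like cells and 0 lower: Pdk1 at 154 and 33.0 CPM, a ratio of 4.67 (4.12 to 5.30), Pdha1 with a ratio of 2.49 and Mpc2 with 1.80. Of 14 hypoxia response genes compared, Ddit4 and Epas1 were higher, and Vhl, Egln1, Vegfa and Bnip3 lower. Against 18.4% higher and 15.9% lower among all genes, neither count sets these lists apart. Bnip3, a gene of mitophagy, was at 47.5 and 130 CPM. Txnip, which limits glucose uptake and is induced by glucose, was at 212 and 68.7 CPM, a ratio of 3.09 (2.83 to 3.38). Of the 10 cell cycle genes, 1 was lower in Undifferentiated-like cells (Rrm2) and the others were within 1.5-fold.

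Within the somatic classes, cycling cells formed clusters of their own and had another set of levels. All 10 cell cycle genes were higher in the cycling Sertoli-like cluster (503 control and 1133 vKO cells) than in the other one (1530 and 3027 cells). Of the 10 glycolytic genes, Pfkp was higher there in both libraries, with ratios of 1.64 and 1.56, and Aldoa lower, with 0.572 (0.559 to 0.586) and 0.627 (0.617 to 0.637). Of the 13443 genes compared, 7.11% were higher and 1.09% lower. Ldhb had ratios of 0.900 and 0.917 and Ldha of 0.884 and 0.882, whereas Slc16a1 was higher in the cycling cells, at 33.6 against 26.8 CPM in control (interval of the ratio 1.13 to 1.38) and 35.7 against 26.3 CPM in vKO (1.26 to 1.46), and Slc16a3 was at 0.726 and 0.748 times. In the cycling Stromal-like cluster (131 and 245 cells against 722 and 1739) Aldoa was at 0.282 and 0.299 times the level of the other cells, Hk2 at 0.494 and 0.564 and Slc2a1 at 0.565 and 0.546, whereas Pgk1 was at 1.72 and 1.56 times. That made 1 gene higher and 3 lower, with 12.3% of all 11567 genes higher and 7.78% lower. As CPM, Aldoa was thus lower in the cycling cells of both classes and in both libraries. Counted per cell the order turned in vKO Sertoli-like cells, at 19.4 UMIs in cycling and 16.7 UMIs in other cells. In control Sertoli-like cells it was 17.9 and 18.7 UMIs. Stromal-like cells kept the order per cell, at 1.9 against 4.7 UMIs in control and 1.8 against 4.0 UMIs in vKO. All 10 cell cycle genes were higher in the cycling Stromal-like cluster too.

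The third comparison set vKO against control within each class, to see where the pathway differed between the genotypes. In Germ-like cells 2 of the 10 genes were past 1.5-fold higher in vKO, Ldhb at 2.63 times (2.33 to 2.96) and Ldha at 1.72 times (1.37 to 2.16), and 0 were lower. Over all 14184 genes 10.0% were higher and 16.2% lower. The ratio of Ldha was 1.44 without the cells that Scrublet marks as doublets, 1.39 with every cell thinned to 2000 UMIs and 1.02 among cells with at most 5% mitochondrial UMIs. Hk1, at 0.702 times, was past 1.5-fold lower with thinned cells (0.557) and with at most 5% mitochondrial UMIs (0.517). Pfkp, at 0.993 times, was so with thinned cells (0.594). As the vKO germ cells were nearly all Undifferentiated-like (181 of 193) and the control ones were not (387 of 569), the same comparison within Undifferentiated-like cells is the closer one. There 1 gene was higher (Ldhb) and 2 lower (Slc2a1 and Hk1), with 9.26% of 13235 genes higher and 14.2% lower.

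Ldhb in Undifferentiated-like cells went from 28.0 CPM in control to 63.9 CPM in vKO, a ratio of 2.28 (2.0 to 2.60), or from 1.30 to 2.44 UMIs per cell. The Sertoli markers moved with it in the same cells: all 10 were at least 1.52 times as high in vKO, and their sum was 2.19 times as high. After subtraction of the Sertoli profile the ratio of Ldhb was 2.24. Ldhb and the summed markers differed by similar factors, so this subtraction could hardly change the ratio and cannot measure the part of Sertoli RNA. Without the cells that Scrublet marks as doublets the ratio of Ldhb was 1.56. Ldhb was also higher in vKO in the KIT-like cells, at 4.13 times (2.72 to 6.10) from 32 UMIs in 10 cells, and in Stromal-like cells, at 1.26 times (1.21 to 1.32), where the summed Sertoli markers were 1.54 times as high. In Leydig-like cells, where the summed Sertoli markers were 0.679 times the control level, Ldhb was at 1.09 times (0.976 to 1.22), and at 1.30 times after subtraction of the Sertoli profile. The part of Sertoli RNA in the vKO level of Ldhb was not tested.

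Slc2a1 in Undifferentiated-like cells was at 37.1 CPM (34.3 to 40.0) in control and 22.9 CPM (19.4 to 26.7) in vKO, a ratio of 0.617 (0.516 to 0.735). Hk1 was at 30.8 CPM (28.3 to 33.5) and 19.3 CPM (16.1 to 22.8), a ratio of 0.625 (0.513 to 0.757). The other genes counted at these steps were not lower, Hk2 being at 1.16 times and the glucose carrier Slc2a3 at 1.34 times (0.978 to 1.82) the control level. Averaging per-cell CPM instead of summing gave 0.705 for Slc2a1 and 0.695 for Hk1, short of 1.5-fold. With gated cells Hk1 was at 0.693, also short of it, and Slc2a1 at 0.645. With every cell thinned to 2000 UMIs Slc2a1 was at 0.932, from 30 control and 13 vKO UMIs. Among cells with at most 5% mitochondrial UMIs Slc2a1 was at 0.904 and Hk1 at 0.517. No KIT-like cluster formed at that setting, so its values equal those of all Germ-like cells and are not limited to this stage.

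The other members stayed within 1.5-fold in Undifferentiated-like cells. Aldoa was at 1.40 times (1.33 to 1.47), Pgk1 at 1.38 times (1.12 to 1.71), Ldha at 1.43 times (1.12 to 1.80) and Slc16a1 at 1.27 times (1.10 to 1.45) the control level. Hk2 was at 1.16 times, Pkm at 1.04 times (0.988 to 1.09) and Pfkp at 0.897 times. Ldha and Slc16a1 were at 1.02 and 0.827 times among cells with at most 5% mitochondrial UMIs. These values equal those of all Germ-like cells, since no KIT-like cluster formed at that setting, and so are not limited to this stage. Genes of neutrophils moved too, with 6 markers summing to 1.5 CPM in control and 284 CPM in vKO Undifferentiated-like cells, or 0.558% of their level in an unnamed vKO cluster led by S100a9, S100a8 and Ngp, and their part in these ratios was not tested.

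Emb had the largest genotype ratio of the 6 genes of the lactate route compared in Undifferentiated-like cells. It was at 28.7 CPM in control and 88.5 CPM in vKO Undifferentiated-like cells, a ratio of 3.08 (2.74 to 3.47), from 515 and 611 UMIs. In the unnamed cluster led by S100a9, S100a8 and Ngp, Emb was at 110 CPM in control and 96.1 CPM in vKO. Of the 11 genes of the route 6 could be compared, with Ldhb and Emb higher and 0 lower, against 9.26% of all genes higher and 14.2% lower. Bsg was at 1.26 times (1.20 to 1.32).

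Genes around mitochondrial pyruvate and hypoxia were compared in the same Undifferentiated-like cells. Mpc2 was at 621 CPM in control and 395 CPM in vKO, a ratio of 0.637 (0.610 to 0.664), with Pdp1 and Pdp2 the others of the 14 compared that were past 1.5-fold lower. Of 13 hypoxia response genes compared, Egln3, Bnip3 and Ndrg1 were lower and 0 higher, Bnip3 at 47.5 against 20.3 CPM, a ratio of 0.427 (0.354 to 0.511), and Ndrg1 at 15.0 against 6.95 CPM. With 3 of 14 and 3 of 13 genes lower, against 14.2% of all genes, the counts do not set these lists apart. Pdk1 had a ratio of 0.689 (0.634 to 0.748), just inside the threshold, and Gpi1 one of 0.987 (0.936 to 1.04). Mycn, which can drive glycolytic genes, was at 25.2 and 13.3 CPM.

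**Figure D5:**
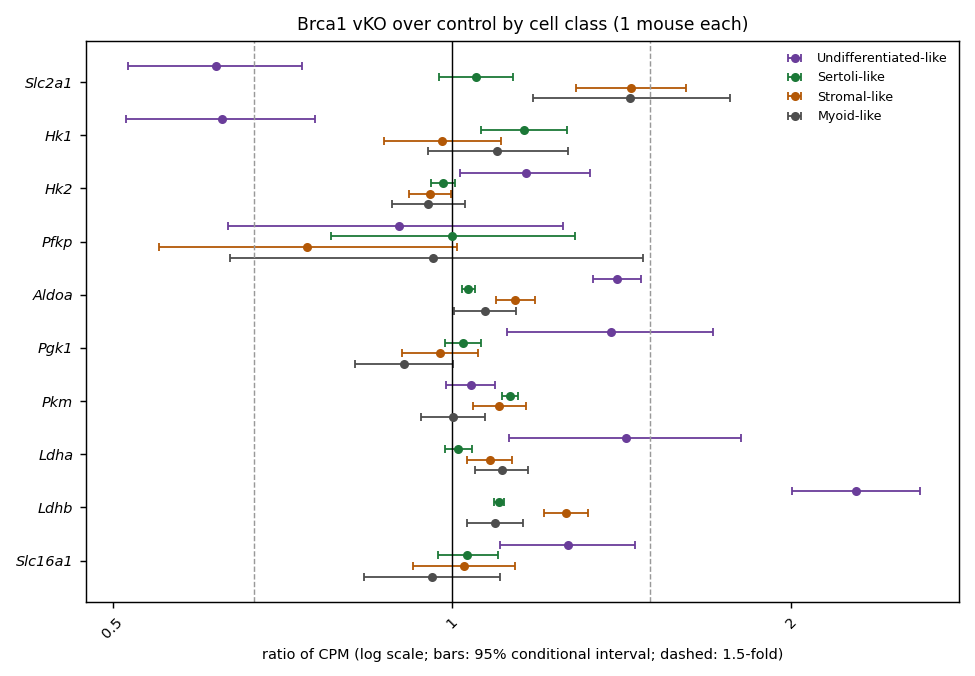
Ratio of CPM in Brca1 vKO to control (log axis) for the 10 genes in 4 cell classes, with exact conditional intervals as bars and 1.5-fold as dashed lines. Undifferentiated-like cells (purple) spread from 0.617 for Slc2a1 to 2.28 for Ldhb, while Sertoli-like cells (green) lie between 0.982 and 1.16.

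In Sertoli-like cells, where Vasa-Cre is not active, 0 of the 10 genes passed 1.5-fold, with ratios from 0.982 (Hk2) to 1.16 (Hk1), where 2.92% of 15525 genes were higher and 3.3% lower. Ldhb was at 1.10 times (1.09 to 1.11) and Pkm at 1.13 times (1.11 to 1.14), differences beyond counting error and with no second mouse to set them against. Slc16a3, the lactate exporter, was lower in vKO Sertoli-like cells, at 35.2 against 45.1 CPM, a ratio of 0.781 (0.742 to 0.823) from 3583 and 2451 UMIs. Ldha at 1.01 times (0.986 to 1.04), Slc16a1 at 1.03 times (0.972 to 1.10) and the glucose carrier Slc2a1 at 1.05 times (0.974 to 1.13) had intervals that include 1.

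Stromal-like and Myoid-like cells had 0 of 10 genes past 1.5-fold too. The background was 2.75% higher and 2.4% lower of 13515 genes in Stromal-like cells, and 3.57% higher and 2.31% lower of 12225 genes in Myoid-like cells. Slc2a1 came closest in both, at 30.5 CPM in control and 43.9 CPM in vKO Stromal-like cells, a ratio of 1.44 (1.29 to 1.61), and at 17.6 and 25.3 CPM in Myoid-like cells, a ratio of 1.44 (1.18 to 1.76). The direction in these cells was opposite to that in Undifferentiated-like cells. Pfkp had a ratio of 0.744 (0.549 to 1.01) in Stromal-like cells.

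In Leydig-like cells 1 of the 9 genes with at least 50 UMIs was past 1.5-fold, Slc2a1 at 13.8 and 30.6 CPM, a ratio of 2.22 (1.27 to 4.16) from 15 and 76 UMIs, and of 5.08 among cells with at most 5% mitochondrial UMIs. Hk1, at 1.35 times (0.850 to 2.21) from 25 and 77 UMIs, was also past 1.5-fold without the cells that Scrublet marks as doublets (1.62) and with gated cells (2.02), and was at 0.685 times with thinned cells. Of 7909 genes 7.99% were higher and 6.55% lower. In the same cells 8 of the 10 cell cycle genes were past 1.5-fold higher in vKO, Slc16a3 was at 4.59 and 25.4 CPM and Slc2a3 at 8.27 and 71.7 CPM, and the 8 Stromal markers summed to 965 CPM in control and 1771 CPM in vKO, or 9.09% and 17.4% of their level in Stromal-like cells. The part of these in the level of Slc2a1 was not tested. Slc16a1, highest in this class, was at 0.930 times (0.777 to 1.12) the control level.

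Genes with the pattern most like the 3 lactate genes were taken over 11 sums of class and library, by the Pearson correlation of log2(CPM + 10) among 15410 genes. For Ldha these were Sparc (r = 0.990), Haghl and Igbp1 (both 0.990), for Ldhb Akr1b8 (0.986), Ly6e (0.984) and Lama1 (0.983), and for Slc16a1 Hcn3 (0.951), Slc25a22 (0.937) and Rab33a (0.929). The 11 points come from 2 libraries and 7 classes and share the total of each sum. The 3 genes named for Slc16a1 were at or below 8.86 CPM in every sum.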

How the data were processed

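The deposited files were count matrices of UMIs per gene and cell barcode, which the authors made with Cell Ranger 6.0.2 against mm10, 1 library per genotype, with no normalization. They held 5812 control and 9456 vKO barcodes with 120568700 and 165062097 UMIs. Cells passed the filter with 750 or more genes and a mitochondrial share of UMIs no higher than 10% (5077 and 8712 cells). They were clustered after the authors' stated steps, with Seurat 5.3.0 in R 4.3.3, 2000 variable genes without the members and pathway lists, 20 principal components, Harmony correction between libraries and resolutions of 0.25 (all cells) and 0.2 (germ cells). Clusters were named from fixed marker lists for germ, undifferentiated, intermediate, KIT, Sertoli, stromal, myoid, Leydig, endothelial, macrophage, neutrophil, pericyte and red blood cells. Germ barcodes of low depth (339 control and 53 vKO, medians 3231 and 3542 UMIs) were kept apart, and clusters with over 25% doublets by Scrublet (scanpy 1.11.5) stayed unnamed and out of all sums. Other doublets were kept, at 3.17% and 2.86% of all cells marked. The classes are rebuilt and may differ from those of the authors.

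Raw counts were summed per class and library and given as CPM with exact Poisson intervals, ratios with exact conditional intervals and shares with Clopper-Pearson intervals (scipy 1.17.1), without a test. A gene was called past 1.5-fold with at least 50 UMIs in the sums compared. Named genes were the 10 members, pathway-list genes past that fold, the lactate route and, for 3 members, the 3 genes of the most similar pattern with at least 200 UMIs in all. The members and lists were chosen with earlier results of these data known. Counts were simulated with Poisson error alone, without any variation between mice, libraries or cells. On these the rule recovered 98.0% of 2-fold and 91.8% of 0.5-fold changes between vKO and control Undifferentiated-like cells, and called 2.28% of unchanged genes, over 13242 genes. The 2.28% thus covers counting error only and is not a rate of false calls between the genotypes. The alternatives were 13 changes of cell filter, clustering, doublets, gating, weighting, depth, scaling (TMM by edgeR 4.0.16) and fold. Subtraction of the Sertoli profile was added after seeing the data.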

Additional observations from a re-analysis of the deposited data

Results flagged for a closer look

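For 2 of the 3 genes past 1.5-fold in vKO Undifferentiated-like cells the genotype ratio lay on the other side of 1 in a larger somatic class. Slc2a1 was at 0.617 times the control level in vKO Undifferentiated-like cells, against 1.44 times in Stromal-like and 1.44 times in Myoid-like cells, and 2.22 times in the small Leydig-like class. Hk1 was at 0.625 times in Undifferentiated-like cells, against 1.16 times in Sertoli-like cells, and the latter was 0.824 times, below 1, with each cell thinned to 2000 UMIs, from 74 control and 126 vKO UMIs. In each of these pairs the 2 intervals lie on opposite sides of 1. Hk2, within 1.5-fold in both classes, was at 1.16 times (1.02 to 1.33) in Undifferentiated-like and 0.956 times (0.915 to 0.998) in Stromal-like cells. With 1 mouse per genotype the difference between the classes was not tested.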

How the results depend on the processing

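Over the alternatives 107 of 124 counts of genes stayed within 1.5 times the main count, and of 1068 single ratios 918 stayed within their interval, 150 moved beyond it and 0 called ratios changed direction. No paired analysis was possible because each genotype is 1 library, and no replicate could be left out. With at most 5% mitochondrial UMIs no KIT-like cluster formed, so that setting gave no stage comparison. Its vKO to control ratios of Undifferentiated-like cells equal those of all Germ-like cells. For Germ-like over Sertoli-like, 2 genes instead of 1 were higher with the mean of per-cell CPM, with cells thinned to 2000 UMIs, with mitochondrial, ribosomal protein and haemoglobin UMIs left out of the total, and at a threshold below 1.5-fold that was also tried (the lower fold). Between stages, 2 genes instead of 6 were higher in Undifferentiated-like cells at 2-fold, and the lower count of 1 (Slc16a1) became 2 with thinning (Hk2 and Pgk1, without Slc16a1), 2 at the lower fold and 0 at 2-fold. For vKO over control the counts take higher and lower genes together. In Germ-like cells the count of 2 became 1 without doublets, 6 at the lower fold and 1 at 2-fold, and in Undifferentiated-like cells 3 became 1 with per-cell means, 7 at the lower fold and 1 at 2-fold. The count of 0 became 2 with thinning and 3 at the lower fold in Stromal-like cells, and 1 at the lower fold in Myoid-like cells. The causes were not tested, apart from the folds, where the threshold itself changed. The 50 UMIs a call needs were counted before thinning, and thinned values rest on few UMIs (in control Undifferentiated-like and KIT-like cells 19 and 18 for Hk2, and 8 and 10 for Pgk1). Depth also limits what can be said of Pfkp, of Ldha in germ cells and of the 10 vKO KIT-like cells.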
